A study of Drosophila melanogaster with 4 samples.

Results

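The regions described here are stretches of the genome of the fruit fly Drosophila melanogaster listed as enriched for histone H3 over Input chromatin. They come from a combined list, and each met regions of 2 replicate lists, which need not cover the same bases. The authors deposited 1 list per replicate and a combined one for both replicates. The members were chosen by position: they are the regions of the combined list that overlap by at least 1 bp a region of the replicate 1 list and also a region of the replicate 2 list. There were 469 of them among 16757 combined regions (2.80%), and they are called shared regions below. Since starts and ends in the 3 lists chose the members, counts and lengths are given as a description, with no test.

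The study used heads of flies at the Mixed Adult stage from Oregon-R-modENCODE, a wild-type laboratory strain, which all of its libraries share. The H3 ChIP group held 2 libraries, made by chromatin immunoprecipitation and sequencing (ChIP-seq) with an antibody named as H3 antibody3. The Input group held 2 libraries of chromatin without immunoprecipitation, one for each ChIP replicate, and it enters only through the authors' calling of regions. Nothing in the labels says that the replicates came from separate cages, so the spread between them may be technical. Region lists carry no expression values, so the head label could not be checked against marker genes. Read depth is unknown, and no interval that needs it is given.

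Histone H3 is a core component of every nucleosome, the unit around which DNA is wrapped, and it is present wherever nucleosomes are. Enrichment over Input marks places that make up a larger share of the DNA recovered with the antibody than of the sonicated Input chromatin. The Drosophila genome has the large autosomal arms 2L, 2R, 3L and 3R, the X, present once in males, the small chromosome 4, and repeat-rich heterochromatin around the centromeres, assembled in part as the Het sequences. Sequence that could not be placed on a chromosome is collected in U. All positions are on FlyBase release 5. No annotation of that release was used here, so regions are given by position, without gene or exon.

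Of the combined regions, 2215 (13.2%) met the replicate 1 list and 2677 (16.0%) met the replicate 2 list, and the shared regions are where these sets coincide. They took up 507 of 2327 replicate 1 regions (21.8%) and 499 of 2779 replicate 2 regions (18.0%). All 452 pairs of replicate regions that overlap each other had both regions in a shared region. Most shared regions, 419 of 469 (89.3%), held 1 region of each list. In 23 several replicate 1 regions lay with 1 of replicate 2, in 17 the reverse was seen, and 10 held 2 or more of each.

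Shared regions were long. Their median length was 2747 bp (middle 50% 2181 to 3655 bp, range 1226 to 10932 bp), against 1840 bp in regions met by replicate 1 only, 1846 bp in those met by replicate 2 only and 1290 bp in those met by neither. The percentage of combined regions that met both lists was 37.6% at 4000 bp or more (91 of 242), 17.9% from 3000 to under 4000 bp, 9.64% from 2000 to under 3000 bp and 1.48% from 1500 to under 2000 bp. Below 1500 bp only 1 shared region was found, 2L 19300285 to 19301510, of 1226 bp. A longer region has more bases with which to meet another list, and no replicate region was shorter than 1301 bp.

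Over all lengths, meeting one replicate went with meeting the other. Of combined regions met by replicate 1, 21.2% (469 of 2215) also met replicate 2, against 15.2% (2208 of 14542) of those not met by replicate 1. Among regions of like length the order was the other way round below 4000 bp, in classes that include their lower limit. From 1500 to 2000 bp replicate 2 met 8.69% of regions met by replicate 1 and 23.7% of those not met by it. From 2000 to 3000 bp the shares were 31.2% and 38.0%, and from 3000 to 4000 bp 45.3% and 48.5%. At 4000 bp or more they were 66.4% and 65.7%. With the replicates exchanged, replicate 1 met 6.98% of regions met by replicate 2 and 19.7% of those not met by it from 1500 to 2000 bp, and 56.9% and 56.1% at 4000 bp or more. The excess seen over all lengths was thus not seen within the length classes under 4000 bp. All 3 lists rest on the same libraries, and what the lengths of combined regions owe to either replicate was not tested.

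**Figure D1:**
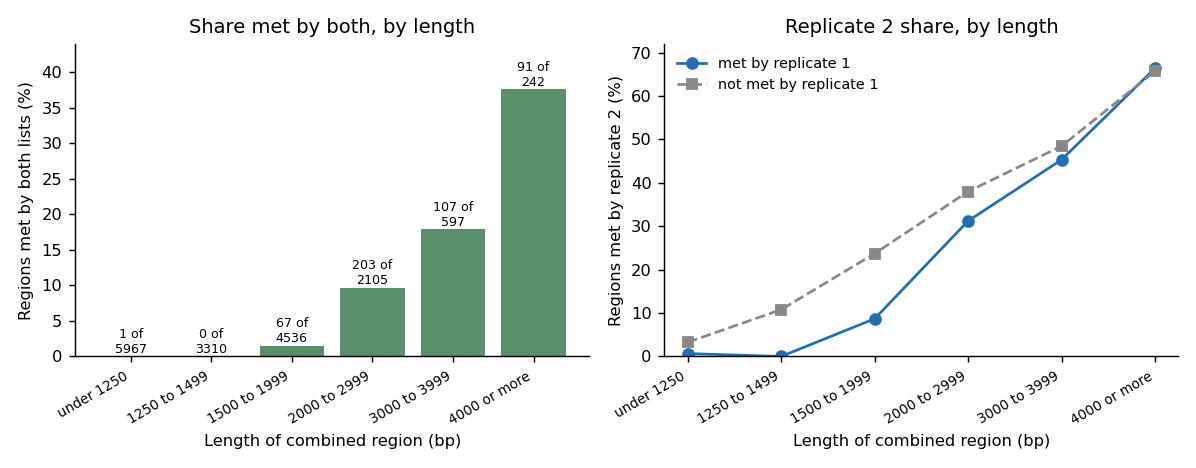
Left, the percentage of combined regions in each length class (bp) that met both replicate lists, with counts above the bars. Right, the percentage that met replicate 2 among combined regions met (circles) and not met (squares) by replicate 1. The share met by both climbs to 37.6% in the longest class, and the circles lie below the squares below 4000 bp.

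The replicate regions inside the shared regions were themselves only slightly longer than those elsewhere. Those of replicate 1 had a median of 1566 bp and those of replicate 2 of 1578 bp, against 1485 and 1500 bp for replicate regions in other combined regions. The longest replicate 1 region and the longest replicate 2 region of either list, 5047 and 5613 bp, both lay in shared regions. In shared regions with 1 region of each list, the lengths of the replicate regions were little related to each other (Pearson r = 0.124, Spearman rho = 0.103, n = 419 regions of the same pair of libraries).

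The autosomal arms held 426 of them, X held 21 and the sequences outside the major arms held 22. Arm 2R had 126, or 26.9% of the shared regions against 19.4% of all combined regions, and 3R had 136, or 29.0% against 26.5%. There were 71 on 2L and 93 on 3L. Per megabase, 2R carried 5.96 shared regions, 3R 4.87, 3L 3.79 and 2L 3.09. The 2R density was 1.93 times that of 2L, and the 3R density 1.29 times that of 3L. Of combined regions, 3.88% were shared on 2R, 3.06% on 3R, 2.85% on 3L and 2.37% on 2L.

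On X 21 of 1935 combined regions (1.09%) were shared, against 3.06% on the autosomal arms, a ratio of 0.355. Each replicate list met X less often too, but less markedly: replicate 1 met 9.56% of X regions and 13.9% of autosomal-arm regions, and replicate 2 met 12.5% and 16.7%. A shared region must meet both lists, so lower shares in each can by themselves lower the joint share by more than either. X was the only major arm where meeting replicate 1 did not go with meeting replicate 2 over all lengths, and the difference there was small. The shares were 11.4% of regions met by replicate 1 (21 of 185) and 12.6% of those not met by it. On the autosomal arms these shares were 22.0% and 15.8%. On X from 2000 to under 3000 bp the first share was the higher, at 34.1% (14 of 41) and 30.6%. It was the lower from 1500 to under 2000 bp, at 3.66% (3 of 82) and 24.0%. From 3000 to under 4000 bp it was the lower too, at 44.4% (4 of 9) and 53.6%. On the autosomal arms it was the lower in each of these classes. From short to long the autosomal shares were 9.53% and 24.1%, 30.8% and 38.0%, and 44.9% and 47.5%. Below 1500 bp almost no region was shared on either: 0 of 832 and 0 of 397 in the 2 classes on X, and 1 of 4747 and 0 of 2741 on the autosomal arms. Of the classes from 1500 bp up, X and the autosomal arms lay close in 1. From 2000 to 3000 bp 9.40% of X regions (14 of 149) and 9.50% of autosomal-arm regions were shared. From 1500 to 2000 bp the shares were 0.587% (3 of 511) and 1.65%, and from 3000 to 4000 bp 10.8% (4 of 37) and 18.2%. X had 9 combined regions of 4000 bp or more and 0 of them were shared, against 87 of 225 on the autosomal arms. A median combined region outside the shared set was 1320 bp on X and 1423 bp on the autosomal arms.

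Outside the major arms 22 of 879 combined regions (2.50%) were shared. The heterochromatic sequence 3RHet had 9 among 158 combined regions (5.70%), and U had 11 among 389 (2.83%), near the 2.80% over all sequences. The sequences 2RHet and 3LHet had 1 each, of 159 and 123. Chromosome 4 had 0 of 22, which allows a share of up to 13.6% (3 regions of 22, counting error only). The sequences 2LHet, XHet and YHet had 0 of 17, 4 and 7. Repeated sequence is common in these parts, and how reads with several matches were treated is not given in the sources used here.

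**Figure D2:**
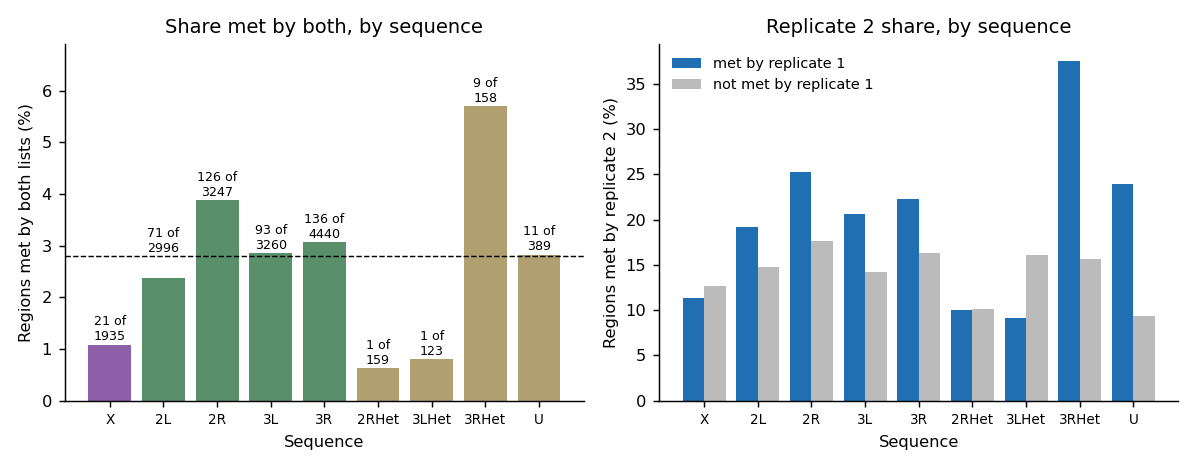
Left, the percentage of combined regions that met both replicate lists, with counts above the bars (purple X, green autosomal arms, tan other sequences) and a dashed line at 2.80%, the share over all sequences. Right, the percentage that met replicate 2 among combined regions met (blue) and not met (grey) by replicate 1; 4, 2LHet, XHet and YHet, with 0 shared regions, are not drawn. Among those drawn, bars on the left run from 0.629% on 2RHet to 5.70% on 3RHet, and on the right the blue bar is below the grey one on X, 2RHet and 3LHet.

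In 427 of 469 (91.0%) a replicate 1 region and a replicate 2 region overlapped each other inside the combined region, by any number of bases, and in 42 they did not. Over all shared regions, which summed to 1485 kb, 34.5% of bases were in both replicate lists, 42.6% were in 1 of them and 22.9% were in neither. The median number of bases in all 3 lists was 1246 bp per shared region, the median percentage of its length in all 3 was 42.0%, and 183 of 469 had over 50% of their length in all 3. Where each list gave 1 region, the centres of the replicate regions lay 399.5 bp apart at the median (middle 50% 166 to 938 bp), and 239 of 419 were within 500 bp. The replicate 1 centre had the lower coordinate in 201 of the 419. Both lists lay wholly inside the combined region in 301 of 469, and a region of at least 1 list ran past its edge in the other 168.

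The 42 shared regions without bases in common were longer and had lower combined scores. Their median length was 3952 bp, against 2656 bp in the 427 with common bases, and their median combined score, the authors' deposited value on an unstated scale, was 0.427 against 0.462. Their replicate scores differed less, with medians of 0.590 and 0.584 in replicate 1 and replicate 2, against 0.589 and 0.607. Some of the longest regions are of this kind. The region 2L 1412815 to 1420461, of 7647 bp, held 1798 bp of replicate 1 and 1728 bp of replicate 2 with 0 bp in common, and 4121 bp in neither. The region 3R 2634827 to 2642464 held 3622 and 2059 bp, 3L 22884398 to 22891776 held 4688 and 1843 bp, and 2R 8995454 to 9002780 held 1390 and 1581 bp, again with 0 bp in common.

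**Figure D3:**
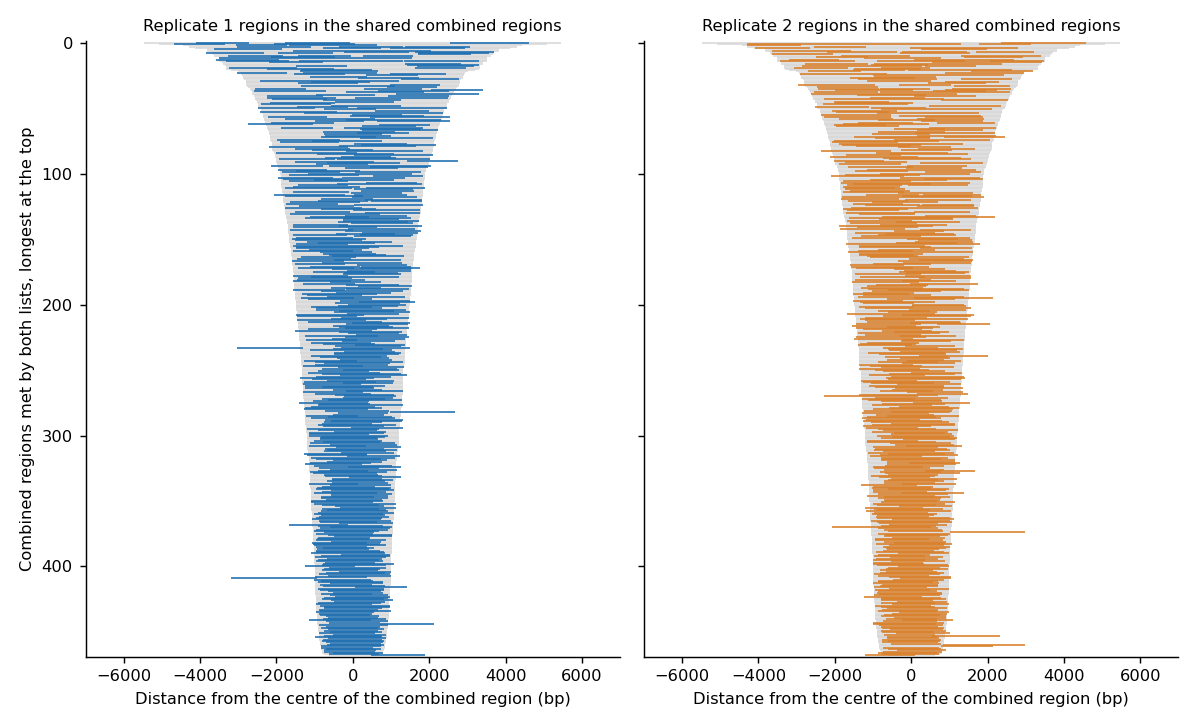
Each row is 1 of the 469 shared regions, longest at the top, drawn in grey about its centre, with the replicate 1 regions (left, blue) and the replicate 2 regions (right, orange) laid over it, in bp from that centre. Replicate regions cover most of the grey in short shared regions and leave more of it bare in long ones, and in 168 rows a line of at least 1 list runs past the grey.

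The 10 longest shared regions, 7327 to 10932 bp, were all on autosomal arms and 4 of them had no base in all 3 lists, against 42 of all 469. The longest, 2R 3228828 to 3239759, held 3 replicate 1 regions over 5159 bp and 1 replicate 2 region over 2225 bp, with 2021 bp in both and 5569 bp in neither. The next, 3R 25531187 to 25541336, held 2 of each list, over 3498 and 6963 bp, with 3100 bp in both. At 3R 22508324 to 22517192 only 165 bp, or 1.86% of the region, were in both. The region 2L 3608405 to 3617002 held 5298 bp of replicate 1, and its only replicate 2 region, of 1355 bp, lay wholly within those.

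The most extensive agreement in bases was at 2R 936368 to 943376. It held 3 regions of each list, over 6329 bp in replicate 1 and 5706 bp in replicate 2, of which 5177 bp (73.9% of the region) were in both and 151 bp of the region in neither. Its combined score was 0.295, near the lowest of any shared region (0.286), and its highest replicate scores were 0.388 and 0.392. The second, 2L 1405103 to 1412506, had 3203 bp in all 3 lists and lies 308 bp from 2L 1412815 to 1420461, which has 0. Others were 3R 25531187 to 25541336 (3100 bp), 2R 15163146 to 15167827 (2997 bp), 3RHet 20027 to 24764 (2693 bp) and 3R 12202220 to 12210465 (2588 bp). The remaining 4 of the top 10 were 2R 286077 to 289879, U 6046312 to 6049803, 2L 8025512 to 8029176 and 3L 459871 to 465251, with 2150 to 2359 bp.

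Scores, each on the authors' scale within its own list, differed more between shared and other regions in the combined list than in the replicate lists, with no test made. The median combined score was 0.457 in shared regions (range 0.286 to 1.20), 0.412 in regions met by replicate 1 only, 0.416 in those met by replicate 2 only and 0.414 in those met by neither. From 2000 to 3000 bp the medians were 0.469, 0.438, 0.440 and 0.418 in the same order. At 4000 bp or more they were 0.464, 0.422, 0.437 and 0.411. From 1500 to 2000 bp they were 0.394, 0.397, 0.400 and 0.396, so that the shared regions had no higher score there. Of the 469, 362 (77.2%) were at or above the median of the combined list.

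The replicate regions inside shared regions had a median score of 0.586 in replicate 1 and 0.601 in replicate 2, against 0.579 and 0.602 for replicate regions in other combined regions. Of regions with a score over 1, 4 of 44 in replicate 1 and 2 of 39 in replicate 2 were in a shared region. The shares at all scores were 21.8% and 18.0%. Of combined regions over 1, 2 of 260 were shared, against 2.80% at all scores. Other combined regions on U had a median score of 0.870, against 0.402 on the autosomal arms. The counts over 1 were not split by sequence. The combined score was below both replicate scores in 450 of 469 shared regions, between them in 19 and above both in 0. Combined medians were also lower outside the shared regions. They were 0.412 where only replicate 1 was met and 0.416 where only replicate 2 was, against replicate medians of 0.579 and 0.602. How the authors scaled scores in each list is not given.

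Across the 419 shared regions with 1 region of each list, the replicate scores correlated with r = 0.595 (Pearson) and rho = 0.428 (Spearman), and r was 0.539 without the 2 regions farthest from the median of replicate 1. On the autosomal arms alone r was 0.346 and rho 0.328 (n = 377). There the combined score had r = 0.568 with replicate 1 and r = 0.562 with replicate 2. These values are across regions of the same libraries, which are not independent replicates, and carry no p.

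**Figure D4:**
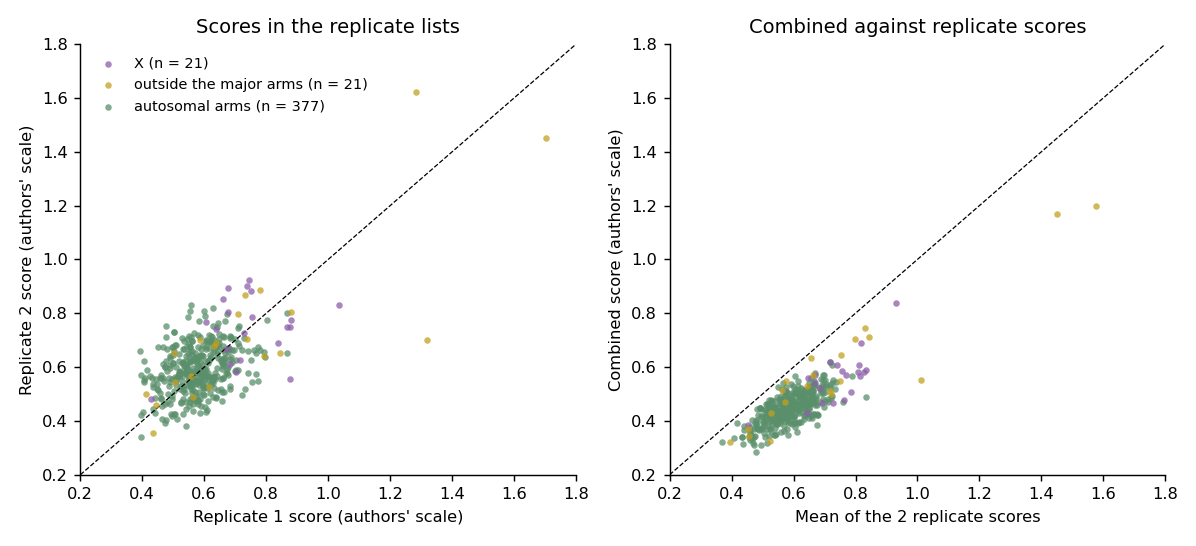
Scores of the 419 shared regions with 1 region of each replicate list, on the authors' unstated scale, with dashed lines of equality. Left, replicate 2 against replicate 1; right, the combined score against the mean of the replicate scores, where nearly all points lie under the line. Shared regions on X and outside the major arms reach further up than those on the autosomal arms, the highest at a combined score of 1.20.

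By sequence, shared regions on X had a median combined score of 0.569, against 0.451 on the autosomal arms, and median replicate scores of 0.729 and 0.749, against 0.583 and 0.596. The ranges overlapped, at 0.387 to 0.839 on X and 0.286 to 0.620 on the autosomal arms. Other combined regions differed between X and the autosomal arms in the same way, at 0.515 and 0.402. The highest X score was at X 11956575 to 11959321 (2747 bp), with 0.839 in the combined list, 1.03 in replicate 1 and 0.829 in replicate 2, and 1608 bp in all 3 lists. The X region 2619051 to 2621613 followed with 0.691, and its replicate scores were 0.737 and 0.899. The lowest was X 5720 to 7849, the first shared region of the chromosome, at 0.387. None of the 21 X regions lacked bases in all 3 lists, where 42 of all 469 shared regions (8.96%) did. On X those bases came to between 312 and 1608 bp.

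The highest combined scores among shared regions were on U. The region U 6636995 to 6638995 (2001 bp) scored 1.20, with 1.70 in replicate 1 and 1.45 in replicate 2, although only 402 bp of it were in both. The region U 7313584 to 7316156 scored 1.17, with 1.28 and 1.62. These were the only shared regions over 1 in the combined list. On U the 11 shared regions still scored lower than the other combined regions there, with a median of 0.529 against 0.870. The 10 highest scores also included 3RHet 1666552 to 1669175 (0.745), U 7932786 to 7935815 (0.713), U 43904 to 46968 (0.703), 3RHet 20027 to 24764 (0.646), U 6314343 to 6317232 (0.634) and, on an autosomal arm, 2R 20381606 to 20385177 (0.620).

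On 3RHet the 9 shared regions ranged widely. The score was 0.322 at 3RHet 1517512 to 1524197, a region of 6686 bp with no base in all 3 lists. At 3RHet 1785398 to 1790426 the replicate scores were 1.32 and 0.701 and the replicate regions again did not overlap. At 3RHet 1598111 to 1600571 the replicates had 2027 bp in common, 82.4% of the region. Of the 9, 5 lay between 1517512 and 1844732 of this sequence of 2.52 Mb, with gaps of at least 51852 bp.

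Most shared regions had no other shared region within 20 kb. The gap to the nearest other shared region was 58554 bp at the median (middle 50% 22012 to 147704 bp), and 113 of 469 (24.1%) had another within 20 kb. On 2R and 3R this was 31.0% and 31.6%, on 2L 21.1%, on 3L 15.1%, and on X 2 of 21. Chained at 20 kb, the 469 regions fell into 356 single regions, 41 pairs, 9 groups of 3 and 1 group of 4. In 23 cases a shared region directly followed another in the combined list. A higher number per megabase shortens the gaps by itself, so these shares also carry the density of each arm. Shared regions made up 2.80% of combined regions, and the spacing of an equally sparse set of other combined regions was not measured.

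The group of 4 spanned 3R 20792624 to 20826987, 34364 bp that held 9 combined regions in all. Its members scored 0.349, 0.479, 0.479 and 0.490, and the first of them had no base in all 3 lists. The tightest group of 3 was 3R 670267 to 683231, in which 3 successive combined regions filled 89.4% of 12965 bp. Groups of 3 also lay at 3R 26727927 to 26744502 and, further on, at 3R 26795497 to 26826221. The group at 2R 20326517 to 20352378 holds the closest pair of all, 2R 20343440 to 20345654 and 2R 20345723 to 20352378, separated by 68 bp. Of the 10 groups of 3 or 4, 8 were on 3R, which held 29.0% of all shared regions. The share with another shared region within 20 kb was close on 2R and 3R, at 31.0% and 31.6%. Groups were formed at 20 kb only.

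**Figure D5:**
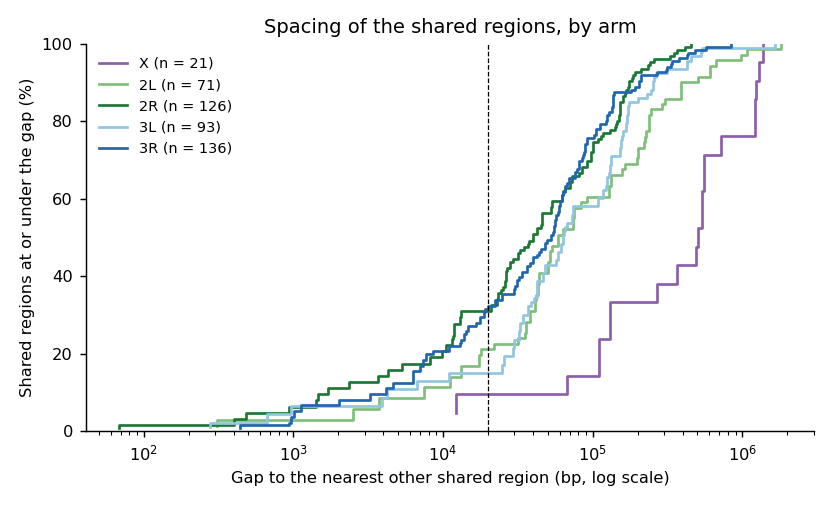
Cumulative percentage of shared regions on each major arm against the gap to the nearest other shared region, in bp on a log axis, with a dashed line at 20 kb. At that line 2R and 3R are at 31.0% and 31.6% and X is at 9.52%. The X curve lies to the right of the others except at its upper end, where 2L and 3L have larger gaps.

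In windows of 1 Mb the shared regions were most numerous at 3R 26000001 to 27000000, with 13 of 196 combined regions (6.63%). The window 2L 1000001 to 2000000 had 12 of 187 (6.42%). Next came 2R 20000001 to 21000000 with 11 of 204 (5.39%), and 3R 20000001 to 21000000 and 2R 16000001 to 17000000 with 10 each. By share, 2R 1 to 1000000 was higher, at 7.84% (4 of 51). So was the part window 3L 24000001 to 24543557, at 8.82% (3 of 34). In the 2L window, picked after its values were seen, 5 of the 12 had no base in all 3 lists, against 42 of all 469 shared regions (8.96%). A full window without a shared region was found 9 times among 22 on X and 4 times among 95 on the autosomal arms. The longest stretch of a major arm without one was X 11959322 to 18138137, 6178816 bp, in which replicate 1 alone met 34 combined regions and replicate 2 alone 46, while 370 met no replicate region. The next were 2L 15110677 to 17478374, X 8452931 to 10749453, X 3907866 to 6094269 and 2L 20765952 to 22585773, of 2367698, 2296523, 2186404 and 1819822 bp.

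The nearest combined region lay a little closer to shared regions than to the rest. Gaps were taken between region ends, with no adjustment for the greater length of shared regions. On the autosomal arms the nearest combined region was 928 bp away at the median (middle 50% 374 to 2334 bp), against 1321 bp (469 to 3121 bp) for other combined regions. The number of combined regions within 20 kb was 7 at the median in both. On X the median gaps were 2390 bp for the 21 shared regions and 2765.5 bp for the others. There shared regions had fewer combined regions within 20 kb, 3 against 4 at the median. Beside the centromere, in the proximal 2 Mb of the major arms, 2.75% of combined regions were shared (21 of 764), against 2.82% elsewhere (426 of 15114). The arms went in both directions: the proximal share was 0.917% on 2L and 2.44% on 3R, against 2.42% and 3.10% of the rest of the arm, and 4.88% on 2R, 3.55% on 3L and 2.07% on X, against 3.84%, 2.82% and 1.01%. These proximal shares rest on 1 to 6 shared regions an arm.

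Few memberships rested on an overlap near the limit of 1 bp. The median of the smaller overlap was 1443 bp, 461 of 469 had at least 500 bp with each list, and 4 had under 100 bp with one of them. The closest inside was 3L 13447015 to 13448712, with 1507 bp of replicate 1 and 4 bp of replicate 2, followed by 2R 4700865 to 4702947 with 1325 and 33 bp. Just outside, X 9588192 to 9589500 met replicate 1 and lay 8 bp from a replicate 2 region, and 3R 7552346 to 7554070 lay 20 bp from one. Of 3954 combined regions met by 1 list only, 267 (6.75%) lay under 1000 bp from a region of the other, and 132 under 500 bp. Beside the 469 shared regions these numbers are not small, so a rule that allowed such gaps would give a larger set.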

How the data were processed

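Adult fly heads were profiled by ChIP-seq with 2 H3 ChIP and 2 Input libraries. Per the labels' protocols, flies came from cages on a 22-day cycle and chromatin was incubated with antibody for 15 hours. Per the submitters' processing notes, Bowtie 0.12.7 was used. Per the file headers, coordinates are on FlyBase release 5. The sources used here do not give the region caller, its threshold or how replicates were joined. The deposited files are 3 lists of regions with start, end and the authors' score, of unstated scale, used only as given. The combined list is the authors' own for both replicates. In it 2 regions ran past the sequence end and were shortened.

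Overlaps, lengths, gaps and shared bases were computed with Python 3.11.15, numpy 2.4.6, pandas 2.3.3 and scipy 1.17.1, and were tested on simulated lists. A replicate score of a shared region with several regions is the highest of them. No file holds values for Input. The members and the choice of comparisons were made with earlier results of these data known. No p-value is given, since the lists chose the members. Named regions are the 10 longest, the 10 with the highest combined score, the 10 with most bases in all 3 lists, the largest groups, those outside the major arms and the longest stretches without one; other named regions were chosen after their values were seen. Length classes, 1 Mb windows and the split of X from the autosomal arms were also chosen after seeing the data. The gene table at hand is on release 6, so genes, gene lists and sequences were not analysed. Alternatives were stricter overlap, score limits, major arms alone, merging, and leaving out each replicate.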

Additional observations from a re-analysis of the deposited data

How the results depend on the processing

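Regions at or above the median score of each list, by construction fewer, gave 158 shared regions (1.89% of combined regions, median length 3078 bp, median score 0.499, 16.5% within 20 kb of another). Under the other alternatives that kept both replicates the count was 427 to 543, with 26.6% to 28.2% on 2R. Requiring bases in all 3 lists gave 2.55%, 2656 bp and 0.462. Merging regions closer than 500 bp gave 3.73% and 3737 bp. An overlap of at least 500 bp gave 2775 bp and 0.459, a replicate region at least 50% inside gave 2774 bp and 0.459, and the major arms alone gave 0.453. Within 10 kb and 50 kb of another shared region lay 15.8% and 44.6%. Leaving out a replicate turns the rule into meeting 1 list: the count was then 2215 to 2677, or 13.2% to 15.98% of combined regions, with a median length of 1942 to 1964 bp, a median score of 0.421 to 0.423, 22.5% to 22.7% on 2R and 61.0% to 66.3% within 20 kb. The ratio of X to the autosomal arms was then 0.690 to 0.751, and 0.309 to 0.467 under the other alternatives. The share met by replicate 2 where replicate 1 was met, minus that where it was not, was -15.4 to -13.9 percentage points from 1500 to under 2000 bp and -8.56 to -3.86 from 2000 to under 3000 bp. The alternatives for X and for length classes were chosen after seeing the data. The cause of these shifts was not tested where the construction does not give it. No paired analysis was possible because no file gives values for Input. With depth unknown, a region absent from a list is not shown to lack enrichment.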
